A study of Mus musculus with 7 samples.

Results

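The 49 mitosis and spindle genes described here are genes whose products run the last part of the cell cycle, from entry into mitosis to the separation of the daughter cells. They were taken by symbol from a list of named genes, and all 49 were found among the 55450 genes of the deposited tables, on 18 chromosomes. Polyadenylated RNA was sequenced from whole cerebella of C57BL/6 pups at postnatal day 15. The tested animals were 4 L3mbtl3 KO/+ mice, which carry 1 knockout and 1 wild-type allele of L3mbtl3, and they were set against 3 L3mbtl3 WT cerebella. The sources used here name neither litter nor sex, nor which part of L3mbtl3 is deleted, and only the KO/+ libraries are stated to come from separate mice, so p-values measure the spread between these samples. L3mbtl3 encodes a chromatin protein with MBT domains that binds methylated lysines and is known to act with the Notch transcription factor RBPJ.

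The libraries held between 29248360 and 43761792 counts, and each member had between 98 (Mybl2) and 7726 (Mki67) counts in every library, so counting error was small beside the spread between libraries. Libraries are named below by genotype and replicate number, which carries no order. Markers of cerebellar granule neurons and Purkinje cells (Gabra6, Neurod1, Zic1, Cbln1, Pcp2 and Calb1) summed to 4563 to 5402 CPM (counts scaled to a common library size with TMM factors) in KO/+ and to 3914 to 4564 CPM in WT libraries, and each was present in every library. L3mbtl3 itself had 19.7, 17.4, 22.3 and 23.0 CPM in KO/+, against 22.6, 26.8 and 23.2 CPM in WT libraries. Its log2 fold change was -0.23 (SE 0.12) with an adjusted p of 0.957 in edgeR's quasi-likelihood test, and since the genotypes overlapped in CPM, this does not separate them. WT 3 stood apart from the other libraries: it had the lowest CPM for 23.3% and the highest for 23.1% of the 16813 genes tested, so results that rest on it are also given without it.

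Mitosis is driven by cyclin-dependent kinase 1 bound to cyclins A and B. It ends when the anaphase-promoting complex tags securin and the cyclins for destruction. The genes for this machinery are transcribed together in late S and G2 phase. Their promoters typically carry CCAAT boxes, bound by the factor NF-Y, and a cell cycle genes homology region (CHR), bound by the MuvB core. With p130 or p107 the MuvB core forms the repressive DREAM complex of resting cells, and with B-MYB and FOXM1 it activates these genes in dividing cells. In the postnatal mouse cerebellum the main dividing cells are the progenitors of granule neurons, which form the external granule layer, a layer that thins out and disappears around the third week, with smaller numbers of dividing glial precursors in the white matter.

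Promoter windows of 300 bases (250 before and 50 after the RefSeq transcription start, GRCm38.p6) were at hand for 41 members, 43 windows in all because Ect2 and Prc1 have 2 each. The letters CCAAT, on either strand, occurred in 31 of the 43 windows (72.1%), beside 37.4% of all 32851 promoter windows of the same length. The CHR letters TTTGAA, on either strand, occurred in 32 windows (74.4%), beside 17.9% of all, and the variant TTCGAA occurred in 3 (7.0%), beside 1.56% of all. CCAAT and TTTGAA occurred together in 27 windows (62.8%), beside 6.95% of all windows, and neither occurred in 7 (16.3%), beside 51.7% of all. In 1 window a match of each motif shared bases. The 7 members with neither set of letters in the window were Birc5, Mad2l1, Melk, Mybl2, Nuf2, Nusap1 and Pttg1. Over the first promoter of each member, 46 of 68 CCAAT matches (67.6%) lay in the 100 bases before the start, against 11 of 39 TTTGAA matches (28.2%), which were more often just after it. The RefSeq start lay over 100 bases inside the GENCODE gene for 6 members (Pttg1, Kif2c, Cdca8, Cdca3, Kif4 and Cenpa), so their windows may not cover the promoter in use. For Mad2l1 and Mybl2 it lay outside the GENCODE gene, at -169 and -52 bases. Their windows thus ended before the gene began and may also miss the promoter in use. The 100 bases before the start are shown for the CDK, for the topoisomerase of mitotic chromosomes, for the ubiquitin-conjugating enzyme and the activator of the anaphase-promoting complex, and for the main spindle motor, because in each a CCAAT match lies upstream of a CHR match. Capitals mark CCAAT (or ATTGG, its opposite strand) and TTTGAA (or TTCAAA). The windows are chr10:69352913-69353012 (minus strand) for Cdk1, chr11:99024190-99024289 (minus strand) for Top2a, chr2:164769829-164769928 (plus strand) for Ube2c, chr4:118437344-118437443 (minus strand) for Cdc20 and chr19:37376282-37376381 (plus strand) for Kif11, and each is written from its 5′ to its 3′ end on the strand of the gene.
Cdk1: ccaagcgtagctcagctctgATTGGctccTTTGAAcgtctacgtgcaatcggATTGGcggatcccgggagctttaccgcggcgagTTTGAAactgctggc
Top2a: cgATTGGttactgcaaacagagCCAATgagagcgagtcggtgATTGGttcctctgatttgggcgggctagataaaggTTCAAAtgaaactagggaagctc
Ube2c: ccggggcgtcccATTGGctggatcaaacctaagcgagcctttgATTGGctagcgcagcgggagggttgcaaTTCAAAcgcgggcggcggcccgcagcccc
Cdc20: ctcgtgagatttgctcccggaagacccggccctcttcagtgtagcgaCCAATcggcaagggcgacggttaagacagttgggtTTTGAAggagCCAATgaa
Kif11: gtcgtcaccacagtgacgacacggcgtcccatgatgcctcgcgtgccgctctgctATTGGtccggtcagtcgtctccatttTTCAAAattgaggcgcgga

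**Figure D1:**
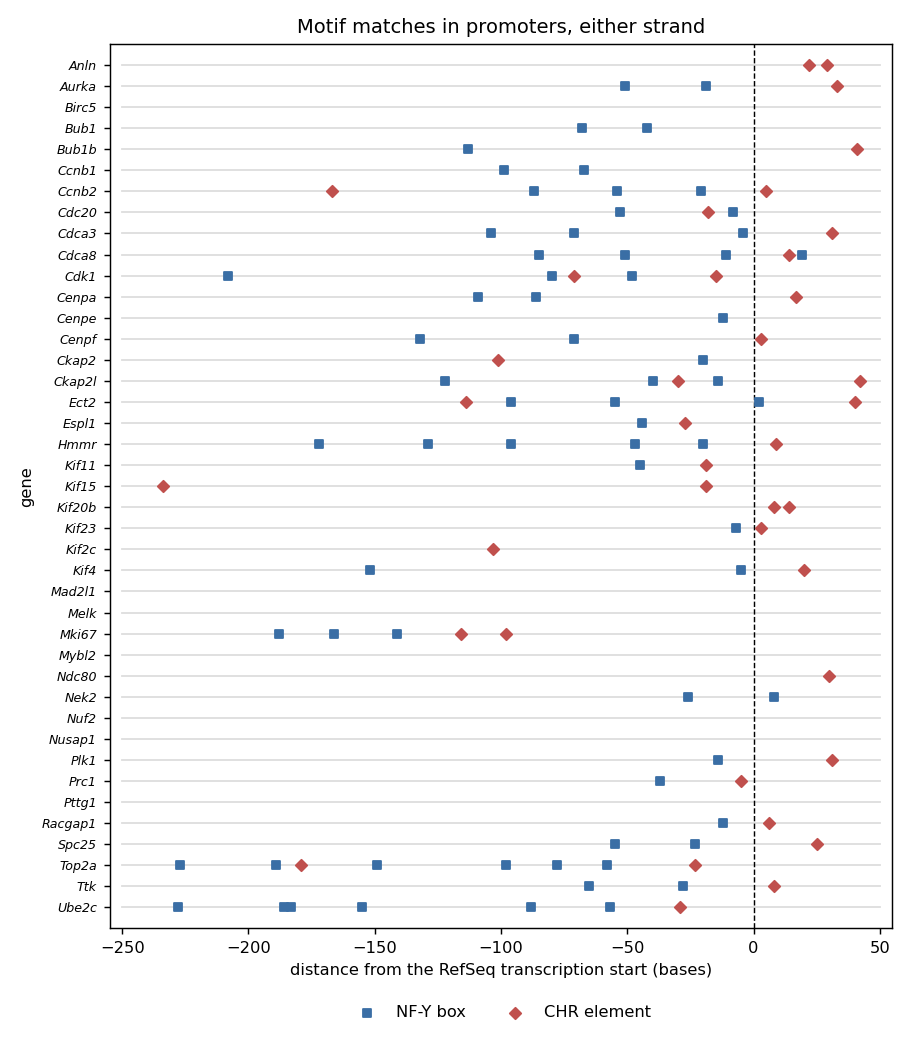
Each row is the first RefSeq promoter of 1 of the 41 members with a window, and the horizontal axis is the distance in bases from the transcription start. Squares mark CCAAT matches (NF-Y box) and diamonds TTTGAA matches (CHR element) on either strand; most squares lie before the start, and the 7 members with neither have an empty row.

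No mitosis or spindle gene passed the test between KO/+ and WT cerebella. All 49 passed the filter on low counts, and 0 of 49 were called at an adjusted p under 0.05 in edgeR's quasi-likelihood test, beside 0 of the 16813 genes tested (0%). None reached an unadjusted p under 0.05, beside 530 of all genes (3.15%, with 1.90% lower in KO/+), nor did any with DESeq2, limma-voom or limma-trend. In none did the KO/+ libraries lie wholly above or below the WT libraries in CPM, beside 665 of all genes (3.96%, with 1.80% lower in KO/+). The adjusted p-values of the members ran between 0.957 and 0.996.

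The log2 fold change, KO/+ over WT, was below 0 for 48 of the 49 members, beside 51.2% of all genes tested, and ran between -0.54 (Bub1b) and 0.01 (Anln). Its median was -0.27 over the members and -0.0047 over all genes. These 48 signs are not 48 separate observations, because 47 members had the same 3 libraries lowest. The median SE was 0.43 for the members and 0.14 for all genes, so a typical member's 95% interval covered changes in both directions, as for Top2a (-1.33 to 0.68). Leaving out WT 3 moved the members' median to -0.61 with 47 members below 0, and leaving out WT 2 moved it to -0.06 with 35 below 0. Without WT 3, the log2 fold changes of Aurka (-0.84) and Bub1b (-0.87) had an adjusted p of 0.598 in edgeR, and 0 members were called. In that fit 2 of 49 members (4.08%) had an unadjusted p under 0.05, beside 975 of 16967 genes (5.75%).

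**Figure D2:**
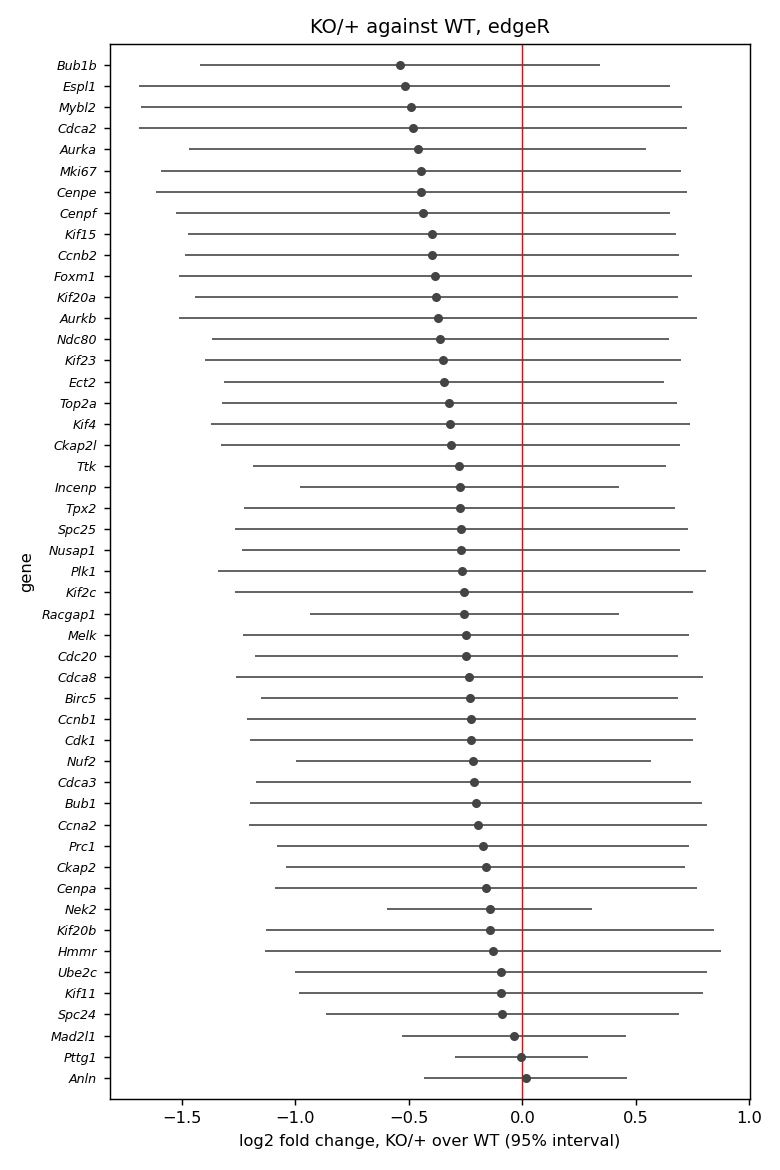
Log2 fold change of each member, KO/+ over WT, with a 95% interval derived from the edgeR fit over all 7 libraries. Members are ordered by size, with a line at 0. Of the 49 points, 48 lie below 0 and every interval covers 0.

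The members spread widely between the libraries of both genotypes. Summed over the members, the libraries held 681, 637, 1305 and 1393 CPM in KO/+, against 1507, 1552 and 609 CPM in WT. KO/+ 1, KO/+ 2 and WT 3 thus held less than the other 4 libraries, and each genotype had libraries at both levels. KO/+ 1, KO/+ 2 and WT 3 were the 3 lowest libraries in 47 of 49 members (95.9%), beside 14.0% of all genes tested and 15.7% of the 11735 genes with at least the CPM of the lowest member. WT 3 was the lowest library for 31 members, KO/+ 2 for 10 and KO/+ 1 for 6. WT 2 was the highest for 26 members, WT 1 for 17 and KO/+ 3 for 3 (Kif11, Kif20b and Hmmr). Both exceptions to the shared order, Pttg1 and Anln, are described with their roles below.

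The ratio of the highest to the lowest library in CPM had a median of 2.90 over the members, 2.42 within the KO/+ libraries and 2.87 within the WT libraries. The WT value rests on WT 3: between WT 1 and WT 2 alone the median ratio was 1.04. Over all genes tested the median ratio was 1.43, and over genes of at least the lowest member's CPM it was 1.32. The ratio passed 2 in 45 members (91.8%), beside 7.76% of genes of at least that level, and ran between 1.32 (Pttg1) and 4.12 (Aurkb). The biological coefficient of variation, edgeR's estimate of the spread between libraries of a genotype beyond counting error, had a median of 39.7% for the members and 15.2% for all genes.

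**Figure D3:**
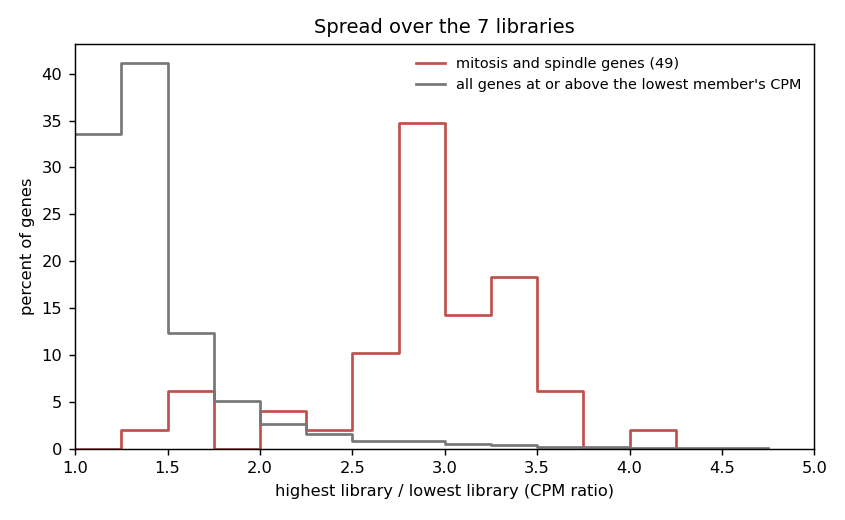
Percent of genes by the ratio of the highest to the lowest of the 7 libraries in CPM, for the 49 members and for the 11735 genes with at least the CPM of the lowest member; the axis stops at a ratio of 5. The members' median is 2.90 and that of the other curve 1.32.

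**Figure D4:**
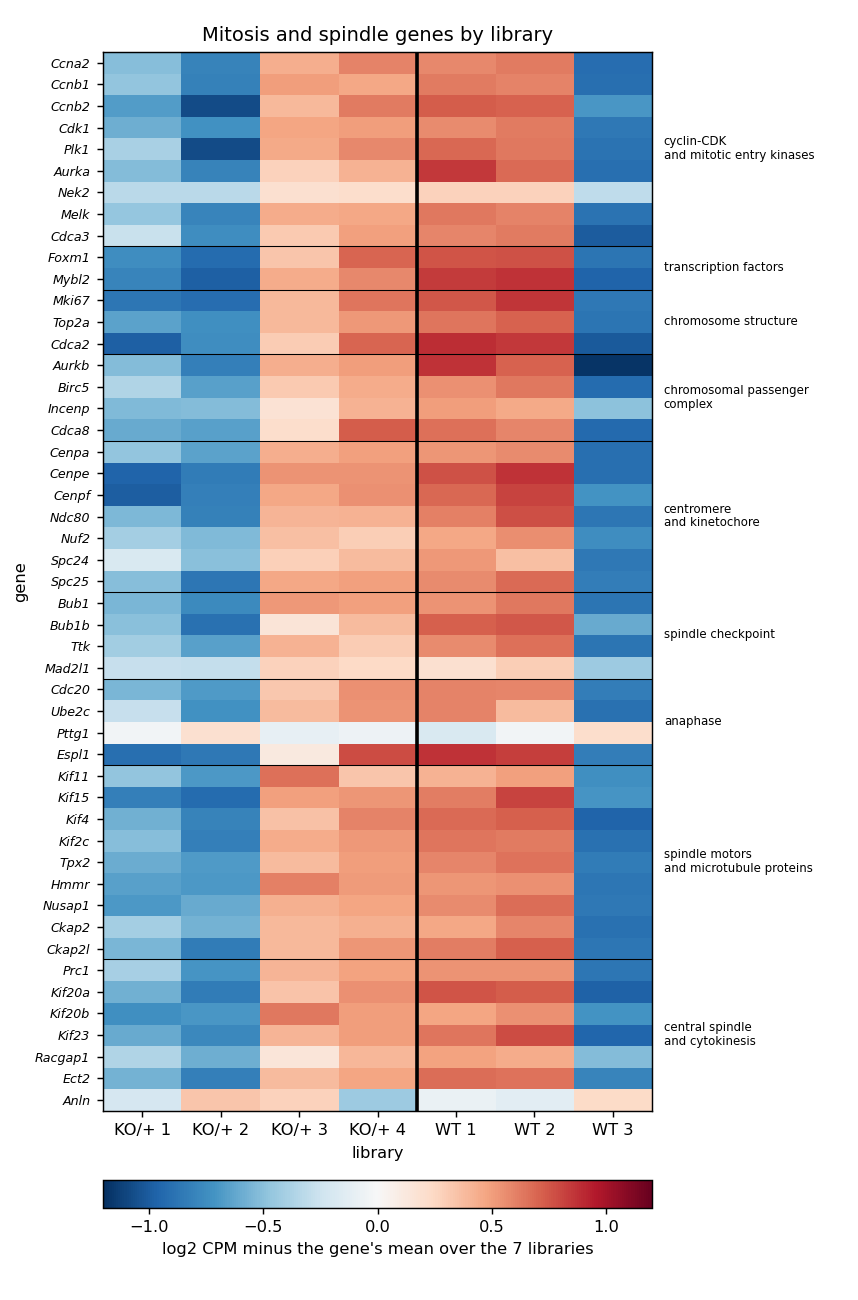
Log2 CPM of each member in each library relative to the member's mean over the 7 libraries, with members grouped by role and KO/+ libraries left of WT libraries. KO/+ 1, KO/+ 2 and WT 3 are the lowest columns in every role group, and Pttg1 and Anln are the rows that do not follow them.

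Deposited TPM are scaled by transcript length and so allow levels of different genes to be compared. By mean TPM, Top2a was the most abundant member with 49.8 ± 25.7 TPM in KO/+ and 62.6 ± 30.7 TPM in WT cerebella (SD, n = 4 and 3, as for all such values). Pttg1 followed with 49 ± 3.60 TPM in KO/+ and 49.98 ± 6.94 TPM in WT, and Cdk1 with 40.6 ± 18.7 TPM in KO/+ and 46.6 ± 19.9 TPM in WT. These 3 mean levels do not differ beyond their SDs, and the order of Top2a and Pttg1 depended on the library. Pttg1 had 44.85, 53.33 and 57.75 TPM in KO/+ 1, KO/+ 2 and WT 3, against 29.19, 26.94 and 27.35 TPM for Top2a. In KO/+ 3, KO/+ 4, WT 1 and WT 2 Top2a was the higher of the pair. In Cdk1 a transcript of 475 bases made up 34.3% to 50.7% of TPM, so its level in TPM rests in part on that transcript. Mybl2 was the least abundant with 2.37 ± 1.29 TPM in KO/+ and 3.63 ± 2.02 TPM in WT. The median TPM of the members was 6.48, 6.05, 13.5 and 13.3 in KO/+, against 15.8, 16.1 and 5.95 in WT libraries. All members together made up 678 ± 273 TPM in KO/+ and 810.2 ± 338 TPM in WT, a difference smaller than either SD.

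The cyclins, CDK and kinases of mitotic entry (Ccna2, Ccnb1, Ccnb2, Cdk1, Plk1, Aurka, Nek2 and Melk), with Cdca3, an F-box-like protein that promotes mitotic entry, showed the shared order in 9 of 9 members, and 0 of 9 were called. Their median log2 fold change was -0.23. Cdk1, the catalytic subunit whose activity sets off mitosis, had 11.3, 10.3, 23.6 and 24.1 CPM in KO/+, against 25.2, 26.3 and 9.37 CPM in WT libraries. Its log2 fold change was -0.23 (SE 0.43), with an adjusted p of 0.959 in edgeR. The lowest value belonged to WT 3 and the genotypes overlapped. Ccna2, the cyclin of S phase and of mitotic entry, had 29, 23.8, 56.1 and 62.4 CPM in KO/+, against 61.7, 63.5 and 21.9 CPM in WT libraries. Its KO/+ 4 value lay between those of WT 1 and WT 2, and its log2 fold change was -0.20 (SE 0.44).

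Aurka, the kinase that matures centrosomes and the spindle poles, had 6.02, 4.97, 10.5 and 11.5 CPM in KO/+, against 15.6, 13.8 and 4.63 CPM in WT libraries. All KO/+ values were below WT 1 and WT 2 and above WT 3. Its log2 fold change was -0.46 (SE 0.44), with an adjusted p of 0.957 in edgeR. The B cyclins behaved alike in order: Ccnb1 averaged 22.2 ± 10.9 TPM in KO/+ and 26.8 ± 12.9 TPM in WT, and Ccnb2 averaged 10.1 ± 5.74 TPM in KO/+ and 13.5 ± 6.25 TPM in WT. Nek2, a kinase that separates the centrosomes, kept the order of libraries on a smaller scale, with 17.3, 17.3, 24.6 and 25 CPM in KO/+, against 26.1, 26.2 and 17.5 CPM in WT libraries. Its highest library was 1.52 times its lowest, the smallest ratio among the 47 members with the shared order.

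Both transcription factors among the members, which activate many of the others, showed the shared order with ratios above 3. Foxm1 had 8.86, 7.85, 18.8 and 24.2 CPM in KO/+, against 25, 25.2 and 8.09 CPM in WT libraries, and a log2 fold change of -0.38 (SE 0.49). Mybl2, which encodes B-MYB, had 2.87, 2.52, 6.74 and 7.37 CPM in KO/+, against 8.87, 9.07 and 2.55 CPM in WT libraries, and a log2 fold change of -0.49 (SE 0.52). In each, KO/+ 4 came nearest to WT 1 and WT 2, KO/+ 2 was the lowest library, and the adjusted p was 0.957 in edgeR.

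The genes for proteins of the mitotic chromosomes had 3 of 3 members with the shared order, 0 called, and a median log2 fold change of -0.45. Mki67, which encodes the surface protein Ki-67 of mitotic chromosomes and is the usual marker of dividing cells, had 63.5, 61.4, 152 and 180.0 CPM in KO/+, against 194, 209 and 63.6 CPM in WT libraries. KO/+ 1, KO/+ 2 and WT 3 differed by little, and the other 4 libraries were over 2 times higher. Its log2 fold change was -0.45 (SE 0.50), with a 95% interval of -1.59 to 0.70. Top2a, the topoisomerase that untangles sister chromatids, had 66.9, 62.6, 137 and 149.5 CPM in KO/+, against 163, 170.1 and 56.8 CPM in WT libraries. Cdca2, which brings a phosphatase to anaphase chromosomes, had 3.85, 4.50, 9.36 and 12.2 CPM in KO/+, against 14.0, 13.6 and 3.76 CPM in WT libraries. In both, KO/+ 3 and KO/+ 4 were below WT 1 and WT 2, and WT 3 was lowest.

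The chromosomal passenger complex corrects faulty attachments of chromosomes to the spindle, and its 4 genes (Aurkb, Incenp, Birc5 and Cdca8) all showed the shared order with 0 called. Aurkb, its kinase, had 5.64, 4.61, 11.0 and 11.5 CPM in KO/+, against 14.8, 13.3 and 3.60 CPM in WT libraries. It had the widest range of all members, with the extremes in WT 1 and WT 3, and a log2 fold change of -0.37 (SE 0.50). Birc5, which encodes survivin, had 5.76, 4.68, 9.19 and 10.0 CPM in KO/+, against 10.8, 11.4 and 3.88 CPM in WT libraries. Incenp, the scaffold of the complex, had 18.3, 18.4, 29.7 and 35.4 CPM in KO/+, against 37.4, 36.1 and 18.8 CPM in WT libraries. Incenp spread less than its partners, with a ratio of 2.05 beside 4.12 for Aurkb. Cdca8, which encodes borealin, averaged 12.5 ± 6.64 TPM in KO/+ and 15.0 ± 7.51 TPM in WT.

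The 7 genes for centromere and kinetochore proteins also had the shared order in every member, 0 called, and a median log2 fold change of -0.27. Cenpa, the histone variant that marks centromeres, had 9.52, 8.46, 17.8 and 18.5 CPM in KO/+, against 19.0, 19.5 and 7.04 CPM in WT libraries. Its log2 fold change in counts was -0.16 (SE 0.41), and it was 0.15 on log2(TPM + 1), with an adjusted p of 0.992 in limma. In KO/+ libraries 19.4% to 46.2% of Cenpa TPM came from transcripts under 400 bases, against 4.14% to 24.8% in WT libraries, although these held at most 4.82% of its counts. Cenpf, a large protein of the outer kinetochore, had 22, 24.7, 60.2 and 63.9 CPM in KO/+, against 70.3, 76.7 and 26.6 CPM in WT libraries. Its lowest library was KO/+ 1, and its log2 fold change was -0.44 (SE 0.47).

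Spc25, of the Ndc80 complex that holds microtubule ends, had 7.70, 6.02, 15.1 and 15.5 CPM in KO/+, against 16.2, 17.6 and 6.17 CPM in WT libraries. KO/+ 2 and WT 3 were nearly equal at the low end. The log2 fold changes of the 4 genes of that complex were -0.36 for Ndc80, -0.22 for Nuf2, -0.09 for Spc24 and -0.27 for Spc25, each within 1 SE of 0. The remaining gene of this role, Cenpe, a kinesin that moves chromosomes to the spindle equator, had a log2 fold change of -0.44 (SE 0.51).

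The spindle checkpoint holds back anaphase until all chromosomes are attached. Its 4 genes (Bub1, Bub1b, Ttk and Mad2l1) showed the shared order with 0 called. Bub1b, which encodes the checkpoint protein BubR1, had 15.2, 11.6, 23.9 and 28.1 CPM in KO/+, against 35.5, 36.1 and 14.2 CPM in WT libraries. It had the most negative fold change of the members, -0.54 (SE 0.38, 95% interval -1.42 to 0.34), with an unadjusted p of 0.197 and an adjusted p of 0.957 in edgeR. All KO/+ values were below WT 1 and WT 2, and WT 3 lay among the KO/+ values. Mad2l1, which binds and inhibits Cdc20, had 18.1, 18.1, 26.6 and 25.9 CPM in KO/+, against 25.2, 26.9 and 16.2 CPM in WT libraries. KO/+ 3 and KO/+ 4 lay among the higher WT values, and the ratio of its highest to its lowest library was 1.66, with a log2 fold change of -0.04 (SE 0.21). The kinases Bub1 and Ttk had log2 fold changes of -0.20 (SE 0.43) and -0.28 (SE 0.40).

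Of the 4 genes of anaphase, 3 showed the shared order and Pttg1 did not. Ube2c, the ubiquitin-conjugating enzyme of the anaphase-promoting complex, had 12, 8.80, 18.9 and 21.2 CPM in KO/+, against 22, 19.0 and 7.83 CPM in WT libraries. KO/+ 4 was above WT 2, and its log2 fold change was -0.09 (SE 0.40). Espl1, which encodes separase, the protease that cuts cohesin, had 4.95, 5.12, 10.1 and 16 CPM in KO/+, against 17.0, 16.5 and 5.24 CPM in WT libraries. KO/+ 3 stood between the lower and the higher values, and the log2 fold change was -0.52 (SE 0.51). Cdc20, which activates the anaphase-promoting complex, had 13.2, 12, 24.1 and 28.0 CPM in KO/+, against 29, 28.9 and 10.8 CPM in WT libraries, with the same 3 libraries low. Pttg1, which encodes securin, the inhibitor of separase, had 12.4, 14.5, 11.9 and 12.1 CPM in KO/+, against 11.2, 12.4 and 14.7 CPM in WT libraries. Its 2 highest values were in KO/+ 2 and WT 3, which were low for most members. Its log2 fold change was -0.01 (SE 0.13, 95% interval -0.30 to 0.29), the narrowest interval among the members, with an adjusted p of 0.996 in edgeR.

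All 9 genes for spindle motors and microtubule proteins (Kif11, Kif15, Kif4, Kif2c, Tpx2, Hmmr, Nusap1, Ckap2 and Ckap2l) showed the shared order with 0 called, and their ratios ran between 2.63 (Kif11) and 3.34 (Kif15). Tpx2, which activates Aurora A and nucleates spindle microtubules, had 24.2, 22.8, 47.4 and 51.8 CPM in KO/+, against 55, 57.4 and 20.4 CPM in WT libraries. Kif15, a motor that keeps the spindle bipolar, had 6.19, 5.76, 15.4 and 15.8 CPM in KO/+, against 16.7, 19.2 and 6.71 CPM in WT libraries. Ckap2, a microtubule-associated protein, had 9.35, 8.36, 16.3 and 16.7 CPM in KO/+, against 17.1, 18.7 and 6.68 CPM in WT libraries. In each of these 3 genes KO/+ 3 and KO/+ 4 were below WT 1 and WT 2, and above the other 3 libraries. Kif11, the motor that pushes the spindle poles apart, had 20.9, 18.1, 46.2 and 36.6 CPM in KO/+, against 38.9, 40.9 and 17.5 CPM in WT libraries, with its highest value in KO/+ 3. The log2 fold changes were -0.28 (SE 0.41) for Tpx2, -0.40 (SE 0.47) for Kif15, -0.16 (SE 0.38) for Ckap2 and -0.09 (SE 0.39) for Kif11.

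The central spindle and cytokinesis genes (Prc1, Kif20a, Kif20b, Kif23, Racgap1, Ect2 and Anln) had the shared order in 6 of 7 members, and 0 were called. Racgap1, which forms the centralspindlin complex with the product of Kif23, had 27.6, 23.6, 39.2 and 46.8 CPM in KO/+, against 49.5, 48.4 and 24.8 CPM in WT libraries. Its ratio of 2.10 was among the smaller ones, and its log2 fold change was -0.26 (SE 0.30). Anln, which encodes anillin of the cleavage furrow, had 37.7, 54.6, 52.5 and 32.0 CPM in KO/+, against 40.9, 39.6 and 50.7 CPM in WT libraries. KO/+ 2, KO/+ 3 and WT 3 were its highest libraries and KO/+ 4 its lowest, with a log2 fold change of 0.01 (SE 0.19) in edgeR and -0.12 on log2(TPM + 1) in limma. In mice Anln is also known to be made by myelinating oligodendrocytes. The sum of 7 myelin genes (Mbp, Mog, Mag, Mobp, Cnp, Mal and Opalin), a list added after the values were seen, was 8853.5, 12192, 10164 and 5921 CPM in KO/+, against 8136, 7226 and 13192 CPM in WT libraries. KO/+ 2, KO/+ 3 and WT 3 were the highest for this sum too, and KO/+ 4 the lowest. Its part in the Anln values was not tested.

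**Figure D5:**
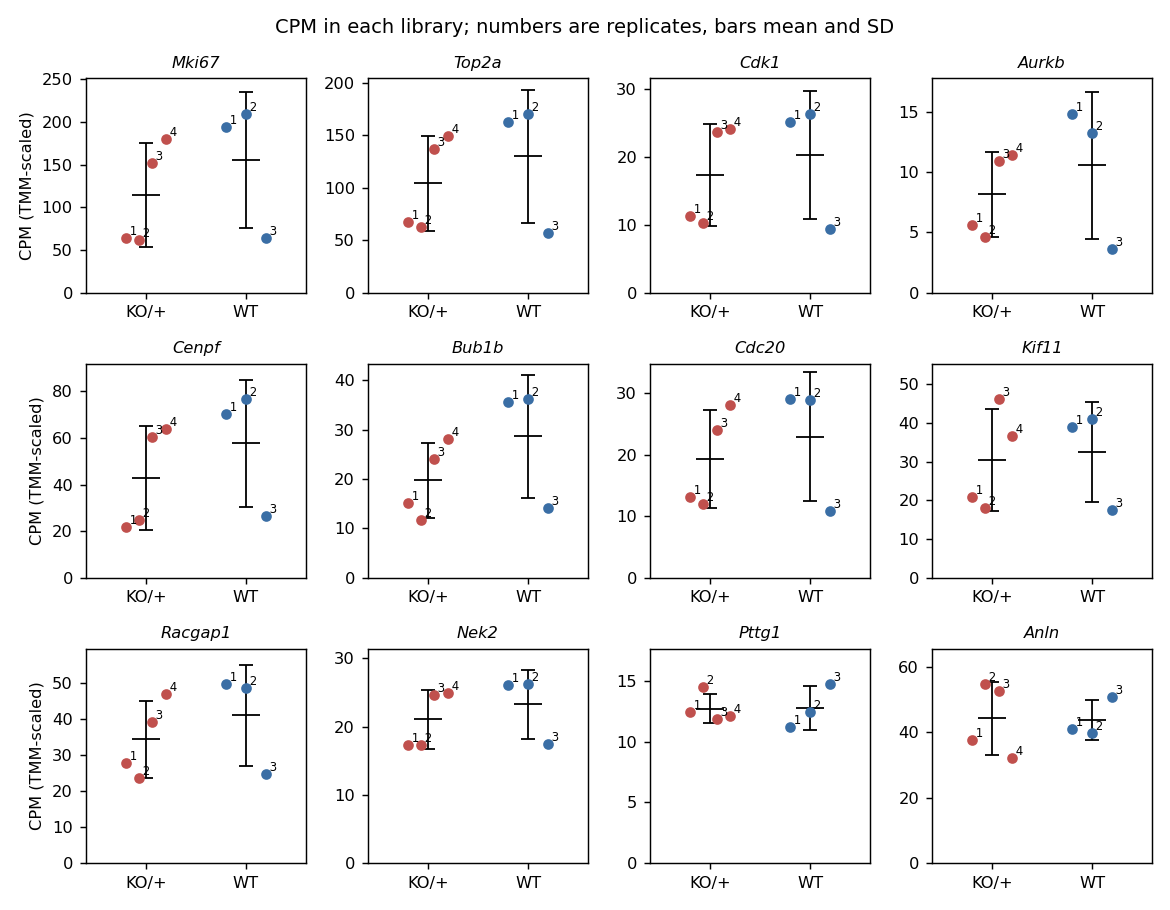
CPM of 12 members in each library, with the replicate number beside each point and bars for the mean and SD of each genotype; each vertical axis starts at 0. In 10 of the panels KO/+ 1, KO/+ 2 and WT 3 are the 3 lowest points, while Pttg1 and Anln run in another order.

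Other genes of the cell cycle were read from the same fit. Of 52 further G2/M genes, 48 had a log2 fold change below 0 and 4 above, with a median of -0.25 and 0 called, and 48 of 52 had KO/+ 1, KO/+ 2 and WT 3 as the lowest libraries. Cit, a kinase of cytokinesis, and Depdc1b had the smallest p-values among them, with log2 fold changes of -0.36 (SE 0.20) and -0.50 (SE 0.35), both at an adjusted p of 0.957 in edgeR. Of 22 S phase genes, 21 were below 0 with a median of -0.23 and 0 called, and 20 of 22 had the same 3 libraries lowest. Mcm4, of the replicative helicase, and Chaf1b, of chromatin assembly, had log2 fold changes of -0.31 (SE 0.24) and -0.51 (SE 0.44). Of 20 DREAM, MuvB and E2F genes, which include many regulators made in resting cells, 11 were below 0 and 9 above, with a median of -0.02 and 0 called, and 11 of 20 had the same 3 libraries lowest. Dyrk1a, the kinase that helps DREAM assemble, and Rbl2, which encodes p130, had log2 fold changes of -0.11 (SE 0.09) and -0.09 (SE 0.08).

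The 15 subunits and activators of the anaphase-promoting complex, which is also used in neurons that no longer divide, had those 3 libraries lowest in CPM for 0 of 15 genes, and the median ratio of the highest to the lowest library was 1.23, beside 2.90 for the members. Summed in TPM, they held 908, 895, 973 and 1037.5 in KO/+, against 1054, 1041.5 and 861 in WT libraries, so KO/+ 1, KO/+ 2 and WT 3 were the lowest for the sum in that unit, by a smaller margin than for the members. Summed in CPM they held 1065, 995, 1029.8 and 1127 in KO/+, against 1149, 1119.8 and 963 in WT libraries, where KO/+ 1 was not among the 3 lowest. Their median log2 fold change was 0.02 with 0 called, 6 being below 0 and 9 above. Anapc11, its RING subunit, had 61.2, 63.4, 61.4 and 59.7 CPM in KO/+, against 58.9, 53.2 and 53.7 CPM in WT libraries. All KO/+ values were above all WT values, which 3.96% of all genes showed in either direction, and the log2 fold change was 0.15 (SE 0.07) at an unadjusted p of 0.0542 and an adjusted p of 0.957 in edgeR. Cdc26 had a log2 fold change of 0.15 (SE 0.08) and overlapping genotypes.

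Markers of granule neuron progenitors (Atoh1, Barhl1, Mycn, Gli1, Ccnd1, Ccnd2, Sfrp1 and Mfap4) moved with the members across libraries. Their sum was 359, 318, 584 and 612 CPM in KO/+, against 677, 696 and 304 CPM in WT libraries, so KO/+ 1, KO/+ 2 and WT 3 were again the lowest, as they were for 8 of 8 genes of the list. All 8 were below 0 in log2 fold change with a median of -0.23 and 0 called. Mfap4 had the lowest at -0.77 (SE 0.54), and that of Gli1, the effector of Hedgehog signalling, was -0.28 (SE 0.27). In RNA from whole cerebella, fewer dividing cells and less of these RNAs per cell cannot be told apart.

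Summed in CPM, markers of microglia and those of Bergmann glia and astrocytes set the same 3 libraries apart in the opposite direction. Microglia markers summed to 103, 111, 92.3 and 69.0 CPM in KO/+, against 88.1, 72.0 and 121 CPM in WT libraries, with KO/+ 1, KO/+ 2 and WT 3 highest. Bergmann glia and astrocyte markers summed to 3509.5, 3667, 3219 and 3179.9 CPM in KO/+, against 3153, 2964 and 3399 CPM in WT libraries, with the same 3 libraries highest. In TPM the sum of this second list was 1953, 2043, 2364 and 2532 in KO/+, against 2427, 2434 and 2022 in WT libraries, so there these 3 libraries were lowest. The mean of log2(CPM + 0.5) over this list was 8.64, 8.66, 8.66 and 8.68 in KO/+, against 8.64, 8.57 and 8.56 in WT. By that measure WT 3 was lowest and KO/+ 4 highest. The direction for Bergmann glia and astrocytes thus depends on the unit and on how the genes are combined. Markers of further cell types took other orders. Oligodendrocyte precursor markers summed to 330.0, 428, 493 and 419 CPM in KO/+, against 493, 462 and 648 CPM in WT libraries, with KO/+ 1 lowest and WT 3, the lowest library for most members, highest. All 6 genes of that list had a log2 fold change below 0, beside 51.2% of all genes, with a median of -0.29. In edgeR 0 were called, and 1 had an unadjusted p under 0.05, beside 3.15% of all genes. Mature granule neuron markers summed to 4245, 3881, 2921 and 3503 CPM in KO/+, against 3397, 3095 and 2949 CPM in WT, with KO/+ 1 and KO/+ 2 high but WT 3 low. Endothelial markers summed to 145, 204, 239 and 181 CPM in KO/+, against 175, 207 and 197 CPM in WT, with KO/+ 1 lowest and KO/+ 3 highest. Choroid plexus markers summed to 1388, 986, 685 and 10.3 CPM in KO/+, against 10.5, 971 and 22.4 CPM in WT libraries, an order unlike that of the members. Red blood cell markers summed to 990.2, 1388, 924 and 485 CPM in KO/+, against 560.4, 512 and 592 CPM in WT, with KO/+ 4 lowest. All 5 genes of the red blood cell list had a log2 fold change above 0, with a median of 0.86. Of these, 4 had an unadjusted p under 0.05 in edgeR, beside 3.15% of all genes, and 0 were called. None of the genes on these lists was at 0 in any library, and their part in the members' values was not tested.

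The deposited transcript tables listed 308 transcripts for the 49 members. In 42 members 1 transcript made up at least 50% of the gene's transcripts on average, and in 42 the leading transcript was the same in all 7 libraries. Transcripts under 400 bases, on which few reads weigh heavily in TPM, made up over 10% of a member's TPM in at least 1 library in 7 members (Espl1, Kif23, Cenpa, Kif15, Bub1b, Spc24 and Aurkb). For Espl1 they were 75.2% of TPM but 1.35% of counts in KO/+ 2, and the ratio of its highest to its lowest library was 9.0 in TPM and 3.43 in CPM. Kif23 had up to 52.3% of its TPM in such transcripts. Transcripts above this limit can weigh alike. In Cdk1, 1 transcript of 475 bases made up 34.3% to 50.7% of TPM on 25.3 to 76.9 counts per library. In Kif20b, 1 of 573 bases made up 36.4% to 52.0% of TPM on 7.21 to 20.7 counts. The values in every library given above for these genes are in CPM.

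Another gene model overlapped 16 members, in 14 of them on the opposite strand. The libraries were directional, but no source used here states the strand setting of the counting, so reads of these 14 and of their neighbours may not have been kept apart. They include Ccna2, Cdc20, Ube2c, Kif11, Cenpf and Espl1, and all 14 were among the 47 members with the shared order of libraries. No model of the types counted overlapped 33 members. Processed copies listed under the names of Ccnb1, Ccnb2 and Kif4 had at most 0.46 TPM in any library.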

How the data were processed

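Polyadenylated RNA of whole cerebella was sequenced with a directional library kit, per the labels' protocols, in 4 L3mbtl3 KO/+ and 3 WT libraries. The submitters' processing notes name RSEM 1.3.1, STAR 2.5.2a, Trimmomatic 0.39 and bcl2fastq, and the builds mm10 and GRCm38. Expected counts, as deposited, are fractional estimates of reads per gene made by RSEM. TPM, as deposited, are relative to transcript length and to the library's total, and the deposited isoform percent is a transcript's share of its gene. Positions and names came from GENCODE M21, in which all 55450 gene IDs were found.

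Expected counts were rounded, filtered with filterByExpr (16813 genes kept), scaled by TMM factors (0.9783 to 1.022) and tested with edgeR 4.0.16 (glmQLFit robust, glmQLFTest) with genotype as the only term. P-values were adjusted over all genes tested by Benjamini-Hochberg, with a threshold of 0.05. No libraries of the same genotype agreed within sampling noise (chi-square per degree of freedom 11.6 to 89.0), so n was taken as 4 and 3. This cannot show that the WT libraries came from separate mice. Depth was 35171610, 39660499, 33260001 and 29248360 counts in KO/+ and 37803045, 36269844 and 43761792 counts in WT libraries. Alternatives were DESeq2 1.42.0, RLE or no factors, other filters, limma-voom and limma-trend 3.58.1 on log2(TPM + 1) or log2(TPM + 0.1), a block for replicate number, and leaving out each library. Scripts were tested on simulated counts with R 4.3.3 and Python 3.11.15. Cell type sums and list counts carry no test.

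The members and all gene lists were chosen with earlier results of these data known. Values in every library are given, in each role, for the 2 members of highest mean TPM and the one of smallest p, for the extremes of fold change and spread, for members above 0 and for Mki67. Outside the members, they are given for L3mbtl3 and Anapc11, and fold changes for the 2 genes of smallest p in each cell cycle and progenitor list. The values of Anapc11, Cdc20, Kif11 and Nek2 in every library, the genes plotted and the 5 promoters printed were chosen after their values were seen. Tables of the whole series were not used.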

Additional observations from a re-analysis of the deposited data

How the results depend on the processing

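The number of members called stayed at 0 under every alternative tried. Over all genes, 0 were called except with the replicate number as a block (1, Eif3j2) and when 1 library was left out (0 to 1: Wdfy1 without WT 2, Fam220a without WT 3 and Eif3j2 without KO/+ 4). No pairing by number was seen: same-numbered libraries correlated at 0.09, -0.17 and -0.02 in their deviations from the group means, and none correlated best with its own number. So few pairs cannot exclude a pairing. Number 4 occurs only in KO/+, so with the replicate block KO/+ 4 did not inform the genotype difference. In that fit the members' median log2 fold change was -0.46, with 47 below 0. The median lay between -0.27 and -0.22 with other tests, factors, filters or TPM, and between -0.61 (without WT 3) and -0.06 (without WT 2) with 1 library left out. It was -0.13 without KO/+ 1, -0.10 without KO/+ 2, -0.44 without KO/+ 3, -0.48 without KO/+ 4 and -0.09 without WT 1, so each library moved it by over 1.5 times. The number of members below 0 ran between 35 and 48 over the same 7 fits.

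Single fold changes turned round under some settings. Anln gave -0.0082 with limma-voom, -0.12 on log2(TPM + 1) and -0.13 on log2(TPM + 0.1), Cenpa gave 0.15 and 0.17 on these TPM scales, and Pttg1 gave 0.021 with the replicate block. With 1 library left out, the log2 fold change ran between -0.10 and 0.13 for Anln, -0.10 and 0.11 for Pttg1, -0.23 and 0.093 for Mad2l1, -0.43 and 0.18 for Ube2c, -0.55 and 0.028 for Ccna2, -0.51 and 0.055 for Cenpa, -0.57 and 0.00017 for Cdk1, -0.59 and 0.0046 for Birc5, and -0.50 and 0.081 for Ckap2. In the same fits further members reached values above 0. The highest were 0.16 for Spc24, 0.10 for Kif11, 0.076 for Hmmr, 0.061 for Kif20b, 0.037 for Bub1, 0.027 for Prc1, 0.019 for Cdca3 and 0.010 for Cdca8. None of these members passed the threshold under any setting. The median ratio of the highest to the lowest library was 3.05 in TPM, 3.02 with no scaling factors and 2.67 to 2.90 with 1 library left out. Each member had at least 98 counts in every library, and the median SE of a member's log2 fold change was 0.43 with 4 against 3 libraries.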
